A study of Mus musculus with 9 samples.

Results

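The 38 genes described here encode proteins of epidermal differentiation and of the cornified envelope, and they were taken by symbol from a deposited expression table of hair follicle stem cells. Each of the 38 symbols was found, on 43 of the 37980 rows of the table, because the gene Flg has 6 rows. RNA was sequenced from sorted skin cells of male C57BL/6J mice of 3 ages, which were 3, 19 and 24 months, and each age had 3 libraries. The sorted cells carried high CD49f (integrin alpha 6) and surface CD34, a combination used to sort cells of the follicle bulge. The labels name no treatment, transgene or mutation, so age was the only stated difference between the groups. The youngest and the 19-month groups hold replicates 1, 2 and 3, and the oldest group holds replicates 2, 3 and 4. Whether replicates were taken from different animals is not stated, so a p-value here covers the spread between libraries, part or all of which could be technical.

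When a keratinocyte leaves the basal layer of the epidermis it begins to build a cornified envelope, a shell of crosslinked protein laid down under the plasma membrane. Involucrin, loricrin, the small proline-rich proteins and the late cornified envelope proteins are joined into this shell by transglutaminases, filaggrin bundles the keratins inside it, and lipids are attached outside it. Many of these genes, together with the S100 genes for small calcium-binding proteins, lie side by side in the epidermal differentiation complex. Transcription factors including Klf4, the grainyhead-like factors and Ovol1 take part in the programme. Bulge stem cells are basal cells and are not a cornifying population, although several S100 proteins are also made in basal keratinocytes and in many other cells.

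Values are FPKM, fragments assigned to a gene, divided by transcript length and by the fragments mapped in that library. The median FPKM of the rows tested lay between 10.01 and 11.29 in the 9 libraries, and depth in reads is unknown. Of the genes for the proteins used in the sort, Cd34 lay between 403 and 632 FPKM and Itga6 between 72.7 and 117 FPKM. Krt14, a marker of basal and bulge keratinocytes, lay between 3235 and 6619 FPKM. Krt15 was listed at 0 in all 9 libraries and Krt5 at 0 in the 3 libraries of 19 months. These zeros in genes that basal keratinocytes use can be failed estimates, so a member listed at 0 is not described as silent. The sample descriptions give each library a running number besides its replicate number, and those of the 3-month libraries are not continuous with those of the older ones, so a pool or batch difference cannot be told apart from the age difference against 3 months.

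Of the 38 genes, 31 had at least 1 FPKM in at least 3 libraries on a row of a protein-coding gene and entered the test, which was limma on log2(FPKM + 1) over 11509 rows with Benjamini-Hochberg adjustment. A gene was called where its adjusted p was under 0.05. Cnfn, Cdsn, Calm4, S100a4 and Klf4 were called as higher at 24 than at 3 months, 5 of the 31 members in a comparison that called 3.84% of all tested rows in either direction and 1.50% as higher. Cnfn was also called as higher at 19 than at 3 months, the 1 member in a comparison that called 1.56% of all tested rows in either direction and 0.600% as higher. An F test over the 3 ages called the same 5 genes, against 4.54% of all tested rows. No tested member was called as lower at either age, where 0.964% of all tested rows were at 19 and 2.34% at 24 months, and none was called in either direction between 19 and 24 months, against 0.930% of all tested rows. The 7 genes that could not be tested were Flg, Sprr1b, Sprr2d, Hrnr, Rptn, S100a8 and S100a9. These calls depended on which rows were tested: in a fit of all 14275 rows of any gene type above the same floor, limma called no member at any comparison, and the adjusted p of the 5 genes at 24 against 3 months lay between 0.0886 and 0.183. That fit called 0.280% of its rows at 19 against 3 months, 0.203% at 24 against 3 months, 0.0490% at 24 against 19 months and 0.224% at any age.

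The promoters of the called genes were searched for 4 short motifs and set beside those of classical envelope genes. RefSeq promoter sequence of the build GRCm38.p6 was held for 33 of the 38 members, and 250 bases before the annotated start were searched on both strands. Cnfn and S100a4 are shown because they are the called genes with a match, and the capitals mark a KLF-type GGGTGTG in Cnfn and a TATAAA in S100a4. The Cnfn sequence is chr7:25369725-25369974 on the minus strand and the S100a4 sequence is chr3:90603520-90603769 on the plus strand, both written 5′ to 3′ along the gene.
Cnfn: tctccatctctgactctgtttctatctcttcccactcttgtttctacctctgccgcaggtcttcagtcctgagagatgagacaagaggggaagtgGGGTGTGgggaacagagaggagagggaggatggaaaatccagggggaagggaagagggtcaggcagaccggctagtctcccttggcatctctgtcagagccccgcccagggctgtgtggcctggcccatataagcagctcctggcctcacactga
S100a4: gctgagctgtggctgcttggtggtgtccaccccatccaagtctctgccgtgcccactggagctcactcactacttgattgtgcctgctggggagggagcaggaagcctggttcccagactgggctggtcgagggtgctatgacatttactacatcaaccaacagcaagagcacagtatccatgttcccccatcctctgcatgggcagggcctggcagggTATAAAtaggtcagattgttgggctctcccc
The 5 stretches of 47 bases that follow are the AP-1-type matches TGANTCA, in capitals, of the envelope genes Ivl and Lor and of 3 neighbouring genes for secreted proteins, Sbsn, Dmkn and Krtdap. They lie at chr3:92573825-92573871 (minus strand), chr3:92083164-92083210 (minus strand), chr7:30751332-30751378, chr7:30763647-30763693 and chr7:30787804-30787850 (plus strand), in that order.
Ivl: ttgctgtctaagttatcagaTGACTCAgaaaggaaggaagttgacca
Lor: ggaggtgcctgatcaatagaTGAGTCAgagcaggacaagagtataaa
Sbsn: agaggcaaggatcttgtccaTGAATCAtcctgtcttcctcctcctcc
Dmkn: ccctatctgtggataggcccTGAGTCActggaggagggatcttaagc
Krtdap: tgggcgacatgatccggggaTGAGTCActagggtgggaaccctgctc
AP-1 is a dimer of Jun and Fos proteins that binds such letters in many epidermal promoters. TGANTCA was present before the start of 13 of the 33 members (39.4%), against 7.82% of the 27025 genes in the promoter table. None of the 5 called genes held it in this window. TATAAA was also present in 13 of the 33 members (39.4%), against 14.3% of all genes. GGGTGTG was present in 4 members (12.1%), which were Casp14, Cnfn, Ivl and Tgm3, against 7.90% of all genes. The grainyhead-type AACCNGTT was present in 3 members (9.09%), which were Rptn, S100a3 and S100a9, against 1.998% of all genes. A match is a description of letters and not a binding site, and the motifs can overlap one another.

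The members spanned the whole range of expression in these cells. The mean FPKM over the 9 libraries lay between 1505 and 3790 for 5 members, between 220 and 873 for 8, between 10.3 and 40.5 for 9, between 1.19 and 9.83 for 10 and at or under 0.642 for 6. Dmkn, for the secreted protein dermokine, had a mean of 3790 FPKM and ranked 10 of the 11509 rows tested. S100a6 ranked 16, Krtdap 29, Lgals7 46 and S100a11 51. The classical envelope proteins were far lower: Lor ranked 6438 with a mean of 8.73 FPKM and Ivl ranked 6653 with a mean of 8.15 FPKM. Tgm1 ranked 10674 and Abca12 ranked 10998.

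The envelope proteins themselves include cornifelin, involucrin, loricrin, the small proline-rich proteins and the late cornified envelope proteins. Cnfn, for cornifelin, was measured at 10.7, 7.52 and 12.3 FPKM at 3 months, at 19.9, 28.8 and 22.3 FPKM at 19 months, and at 32.9, 14.1 and 25.1 FPKM at 24 months. Every older library was above every 3-month library, and the 19- and 24-month libraries overlapped. Cnfn rose at 19 months by 1.16 ± 0.25 (SE) on the log2(FPKM + 1) scale (limma, adjusted p = 0.0303), to 2.34 times the mean FPKM of 3 months. It also rose at 24 months, by 1.12 ± 0.25 (SE; limma, adjusted p = 0.0231), to 2.37 times the mean FPKM of 3 months.

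The late cornified envelope gene Lce1a1 was at 2.54, 4.95 and 5.27 FPKM at 3 months, at 10.1, 5.87 and 23.4 FPKM at 19 months, and at 15.6, 6.99 and 13.7 FPKM at 24 months. All 6 older libraries were above the 3 of 3 months, but the older libraries of 1 age differed among themselves by more than the ages did. The difference was 1.27 ± 0.38 at 19 months (limma, adjusted p = 0.105) and 1.29 ± 0.38 at 24 months (limma, adjusted p = 0.0672), and neither passed the test. Lce1c, which belongs to a family of related genes, was at 4.78, 27.5 and 33.3 FPKM at 3 months, at 32.2, 10.7 and 84.6 FPKM at 19 months, and at 70.4, 34.1 and 66.6 FPKM at 24 months. Its 24-month libraries were all above those of 3 months, while those of 19 months overlapped both. Lce1b had means of 2.07 ± 0.714, 4.14 ± 2.31 and 5.30 ± 2.32 FPKM (SD, n = 3) at 3, 19 and 24 months. Lce1b and Lce1c did not pass at any comparison, with an adjusted p of 0.104 and 0.151 at 24 against 3 months in limma.

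The table holds 13 genes of the Lce1 family, a list put together after their values were seen, and 11 of them were tested. The family members ordered the libraries alike: of the 11, 10 were lowest of the 3-month libraries in replicate 1, 10 were lowest of the 19-month libraries in replicate 2 and 11 were lowest of the 24-month libraries in replicate 3. The highest of all 9 libraries was 19 months replicate 3 for 9 genes and 24 months replicate 2 for 2 genes. Their summed FPKM was 26.2, 78.6 and 98.7 at 3 months, 127, 56.0 and 324 at 19 months, and 268, 109.6 and 201 at 24 months. The sum therefore differed several-fold between libraries of 1 age, and 19 months replicate 2 lay within the 3-month range. The genes form a cluster of related copies whose sequences were not compared here, so whether reads were split between them was not tested and each gene's own value is uncertain.

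**Figure D1:**
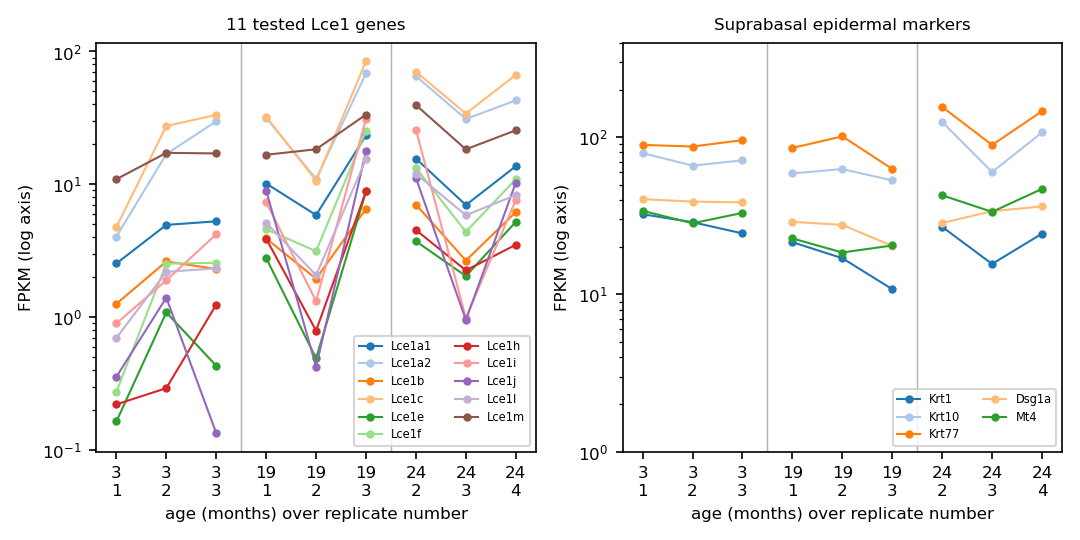
FPKM on a log axis across the 9 libraries, in order of age and replicate with 1 line per gene, for the 11 tested Lce1 genes (left) and for 5 suprabasal epidermal markers (right). Skint3, a suprabasal marker that was also tested, is not drawn. The Lce1 lines run in parallel, low in 3 months replicate 1 and 19 months replicate 2 and high in 19 months replicate 3 and 24 months replicate 2.

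Ivl, for involucrin, was at 5.67 to 8.97 FPKM at 3 months, 7.64 to 9.84 FPKM at 19 months and 6.97 to 10.98 FPKM at 24 months, and the ages overlapped. Lor, for loricrin, had means of 6.40 ± 3.40, 8.44 ± 1.28 and 11.3 ± 6.15 FPKM (SD, n = 3). Neither passed the test at any comparison, with an adjusted p of at least 0.298 for Ivl and 0.243 for Lor in limma. Sprr1a, for a small proline-rich crosslinking protein, had means of 19.1 ± 7.87, 18.8 ± 9.54 and 12.6 ± 4.30 FPKM (SD, n = 3) and was the 1 tested envelope gene that lay below its 3-month level at both older ages, without passing. Sprr1b stayed at or under 0.327 FPKM, and Sprr2d was listed at 0 in all 9 libraries. Of the 7 tested envelope genes, 6 lay above the 3-month level at each older age, and 1 was called at each, against 1.56% and 3.84% of all tested rows. The median difference was 0.67 at 19 months and 0.99 at 24 months. Both medians are the values of Lce1b, and Lce1a1 and Lce1c are also among the 7, so they rest on genes whose own values are uncertain. The differences were 0.44 and 0.38 for Ivl and 0.43 and 0.69 for Lor.

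The filaggrin family, large proteins with an S100-type calcium-binding start, was among the lowest of the members, with Flg2 the 1 gene of the family that was tested. Flg, for filaggrin, had 6 rows, of which 3 were at 0 throughout. The highest row was at 1.12, 0.683 and 1.85 FPKM at 3 months, at 0.706, 2.44 and 2.23 FPKM at 19 months and at 1.98, 0.523 and 1.74 FPKM at 24 months. None of the Flg rows could be matched to the annotation used to choose protein-coding rows, so Flg entered the fit of all rows alone, with this row and another. The adjusted p of the highest row was 0.744 at 19 and 0.914 at 24 against 3 months in limma. That of the other row was 0.976 and 0.851. Flg2 was at 1.42, 1.43 and 2.80 FPKM at 3 months, at 1.41, 3.59 and 3.38 FPKM at 19 months, and at 2.56, 1.98 and 2.84 FPKM at 24 months. Its ages overlapped, and it did not pass at any comparison. Hrnr (hornerin) and Rptn (repetin) stayed below 1 FPKM in every library and were not tested.

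Of the enzymes that assemble and process the envelope, Tgm3 is a transglutaminase also found in the hair follicle, Tgm1 is the membrane-bound transglutaminase of the epidermis, Casp14 is a protease that processes filaggrin, and Spink5 inhibits the kallikreins of the skin surface. Tgm3 was at 3.01, 1.50 and 1.83 FPKM at 3 months, at 0.920, 1.01 and 0.381 FPKM at 19 months, and at 1.78, 3.22 and 1.98 FPKM at 24 months. All 3 libraries of 19 months were below the other 6, at levels where FPKM is least precise. The difference was -0.80 ± 0.23 at 19 against 3 months (limma, adjusted p = 0.0992) and 0.90 ± 0.23 at 24 against 19 months (limma, adjusted p = 0.0849), and neither passed. Tgm1 had means of 1.28 ± 0.531, 1.49 ± 0.318 and 1.71 ± 0.185 FPKM, and Casp14 had means of 10.2 ± 0.721, 10.5 ± 2.62 and 11.2 ± 2.75 FPKM (SD, n = 3). Spink5 had means of 22.2 ± 5.09, 24.8 ± 8.54 and 31.9 ± 8.88 FPKM (SD, n = 3). None of these 3 genes passed at any comparison.

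Corneodesmosin, encoded by Cdsn, is the adhesive protein of the junctions that hold cornified cells together. Cdsn was at 13.5, 10.7 and 17.3 FPKM at 3 months, at 20.6, 27.0 and 21.03 FPKM at 19 months, and at 38.5, 20.5 and 25.5 FPKM at 24 months. All 6 older libraries were above the 3 of 3 months, and 1 library of 24 months, replicate 2, stood above the rest. Cdsn rose at 24 months by 0.96 ± 0.21 (SE; limma, adjusted p = 0.0231), to 2.04 times its 3-month mean FPKM. The difference at 19 months, 0.70 ± 0.21, did not pass (limma, adjusted p = 0.114).

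Dmkn, Sbsn and Krtdap encode dermokine, suprabasin and a keratinocyte differentiation-associated protein, all secreted, and they follow one another on chromosome 7 in the RefSeq annotation. Dmkn was at 2305, 3128 and 2996 FPKM at 3 months, at 4167, 4801 and 5547 FPKM at 19 months, and at 4254, 3372 and 3539 FPKM at 24 months. Every older library was above every 3-month library, and the highest 24-month library lay within the range of 19 months. At 19 months the difference was 0.79 ± 0.19 (limma, adjusted p = 0.0506), just outside the threshold for a call, and at 24 months it was 0.41 ± 0.19 (limma, adjusted p = 0.225). Dmkn was called at 19 months under 7 of the alternative settings. Sbsn had means of 268 ± 40.5, 377 ± 38.3 and 371 ± 58.9 FPKM (SD, n = 3), and its older libraries were also all above those of 3 months, without passing the test (limma, adjusted p = 0.126 at 19 and 0.104 at 24 months). Sbsn overlaps Tmem147os on the same strand in GENCODE, and reads of that transcript could be counted with it.

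Krtdap was at 2590, 1583 and 1717 FPKM at 3 months, at 1967, 2697 and 2031 FPKM at 19 months, and at 3285, 1821 and 3452 FPKM at 24 months, and its ages overlapped. Lgals7, for galectin-7, was at 1421, 1387 and 1635 FPKM at 3 months, at 1604, 2075 and 2018 FPKM at 19 months, and at 1535, 1403 and 1488 FPKM at 24 months. All libraries of 19 months were above those of 24 months for Lgals7, and neither Krtdap nor Lgals7 passed at any comparison. Abca12, the transporter that loads lipid into lamellar granules, had means of 1.32 ± 0.246, 1.16 ± 0.219 and 1.10 ± 0.145 FPKM (SD, n = 3), and did not pass at any comparison.

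**Figure D2:**
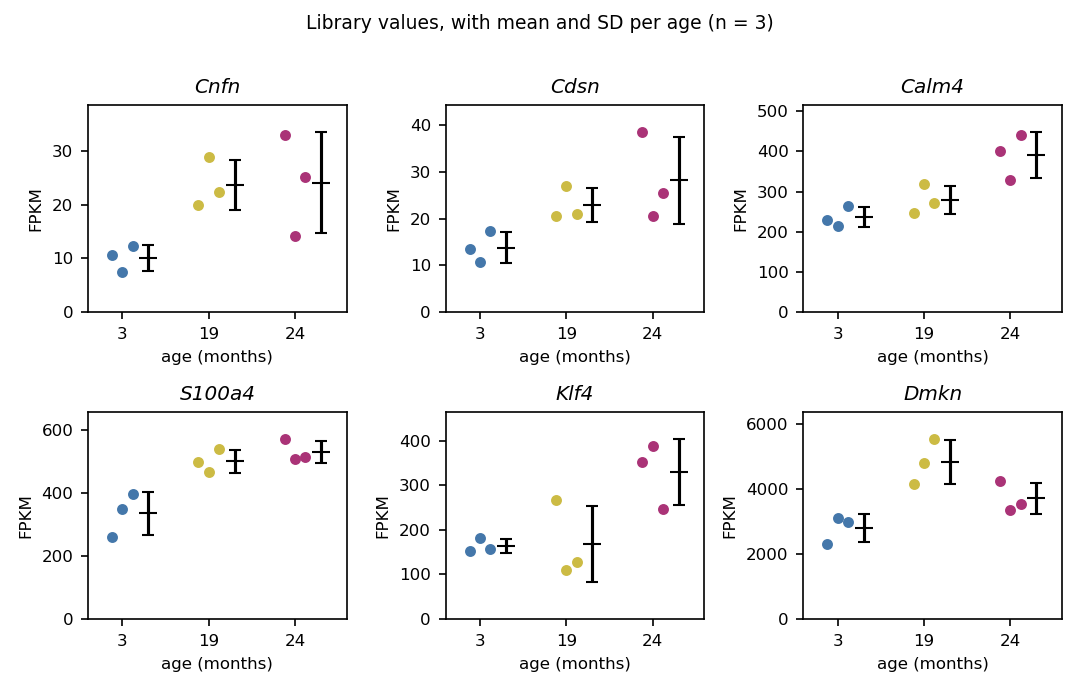
FPKM per library of the 5 called members and of Dmkn, which missed the threshold, with coloured points for the libraries by age, a black dash for the mean and whiskers for the SD (n = 3). For Cdsn, Cnfn, S100a4 and Dmkn every older library lies above the 3-month libraries, and for Calm4 and Klf4 every 24-month library does.

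Calm4 and Calml3 encode calmodulin-like calcium sensors of skin and lie side by side on chromosome 13. Calm4 was at 230, 215 and 265 FPKM at 3 months, at 247, 318 and 272 FPKM at 19 months, and at 401, 328 and 442 FPKM at 24 months. The 24-month libraries were above all 6 others, while 3 and 19 months overlapped. Calm4 rose by 0.71 ± 0.15 (SE) at 24 against 3 months (limma, adjusted p = 0.0167), to 1.65 times the mean FPKM, and the difference of 0.48 ± 0.15 between 24 and 19 months did not pass (limma, adjusted p = 0.167). Calm4 overlaps Gm40655 on the same strand in GENCODE, and reads of that transcript could be counted with it. Calml3 was at 215, 162 and 523 FPKM at 3 months, at 275, 612 and 616 FPKM at 19 months, and at 274, 371 and 355 FPKM at 24 months. It was high in 1 library of 3 months and in 2 of 19 months, the ages overlapped, and it did not pass (limma, adjusted p = 0.271 at 19 and 0.633 at 24 against 3 months).

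Klf4, a zinc-finger factor needed for the epidermal barrier, was at 153, 183 and 157 FPKM at 3 months, at 266, 109.8 and 128 FPKM at 19 months, and at 353, 388 and 246 FPKM at 24 months. The 24-month libraries were all above those of 3 months, and replicate 1 of 19 months lay within the 24-month range. Klf4 rose by 0.97 ± 0.26 (SE) at 24 against 3 months (limma, adjusted p = 0.0477), to 2.002 times the mean FPKM. Its call was kept in 6 of the 20 alternative settings, the fewest of the called members. The difference of 1.05 ± 0.26 between 24 and 19 months did not pass (limma, adjusted p = 0.0717).

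The other factors of barrier formation did not pass at any comparison. Grhl3, a grainyhead-like factor, had means of 7.97 ± 1.55, 5.32 ± 1.97 and 8.32 ± 1.62 FPKM (SD, n = 3). Grhl1, its relative, had means of 11.3 ± 1.84, 9.82 ± 2.39 and 9.70 ± 0.944 FPKM. Ovol1, a repressor that acts in keratinocytes leaving the basal layer, had means of 9.27 ± 2.06, 11.01 ± 0.908 and 10.9 ± 1.90 FPKM.

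Of the 9 S100 genes, S100a6, S100a11, S100a10, S100a4, S100a16 and S100a14 were among the abundant members, S100a3 was lower, and S100a8 and S100a9 were among the lowest. S100a4, whose product binds non-muscle myosin and is linked to cell migration, was at 260.5, 351 and 396 FPKM at 3 months, at 499, 467 and 539 FPKM at 19 months, and at 572, 508 and 516 FPKM at 24 months. All 6 older libraries were above the 3 of 3 months. S100a4 rose by 0.68 ± 0.16 (SE) at 24 months (limma, adjusted p = 0.0258), to 1.58 times the mean FPKM, and the difference of 0.60 ± 0.16 at 19 months did not pass (limma, adjusted p = 0.0710). Its gene overlaps Gm42674 on the same strand in GENCODE, so reads of that transcript could be counted with it.

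S100a6 (calcyclin) was at 2304, 2607 and 2353 FPKM at 3 months, at 3643, 3408 and 4905 FPKM at 19 months, and at 3913, 2811 and 3347 FPKM at 24 months. S100a11 was at 1003, 1344 and 1245 FPKM at 3 months, at 1461, 1505 and 1765 FPKM at 19 months, and at 1941, 1496 and 1786 FPKM at 24 months. For both genes every older library was above every 3-month library, and neither passed: the smaller adjusted p was 0.0789 for S100a6, at 19 months, and 0.0818 for S100a11, at 24 months, in limma. S100a10, the partner of annexin A2, was at 798, 784 and 733 FPKM at 3 months, at 748, 814 and 964 FPKM at 19 months, and at 953, 910.1 and 1148 FPKM at 24 months. Its 24-month libraries were above those of 3 months, and it did not pass (limma, adjusted p = 0.164).

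S100a3, which is abundant in the hair cuticle, was at 11.6, 17.5 and 20.1 FPKM at 3 months, at 35.2, 24.2 and 33.6 FPKM at 19 months, and at 30.2, 20.8 and 16.6 FPKM at 24 months. The libraries of 19 months were above those of 3 months and those of 24 months overlapped both, and the difference at 19 months, 0.89 ± 0.23, did not pass (limma, adjusted p = 0.0611). S100a3 overlaps S100a2 and Gm42674 in GENCODE, and whether the submitters counted by strand is not stated. S100a16 had means of 297 ± 67.8, 434 ± 49.5 and 334 ± 45.9 FPKM, and S100a14 had means of 221 ± 41.3, 288 ± 38.8 and 221 ± 54.4 FPKM (SD, n = 3), without passing. S100a8 and S100a9, the subunits of calprotectin, were listed at 0 in the 3 libraries of 3 months and reached at most 2.77 and 0.685 FPKM in the older libraries. They were too low to test. Neutrophils make much calprotectin, and of 12 neutrophil markers 2 were tested and none was called by limma, Ly6g, Ltf and Retnlg were listed at 0 in all 9 libraries, and the summed FPKM of the list lay between 2.42 and 3.03 at 3 months, 1.46 and 2.91 at 19 months and 1.66 and 2.32 at 24 months.

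**Figure D3:**
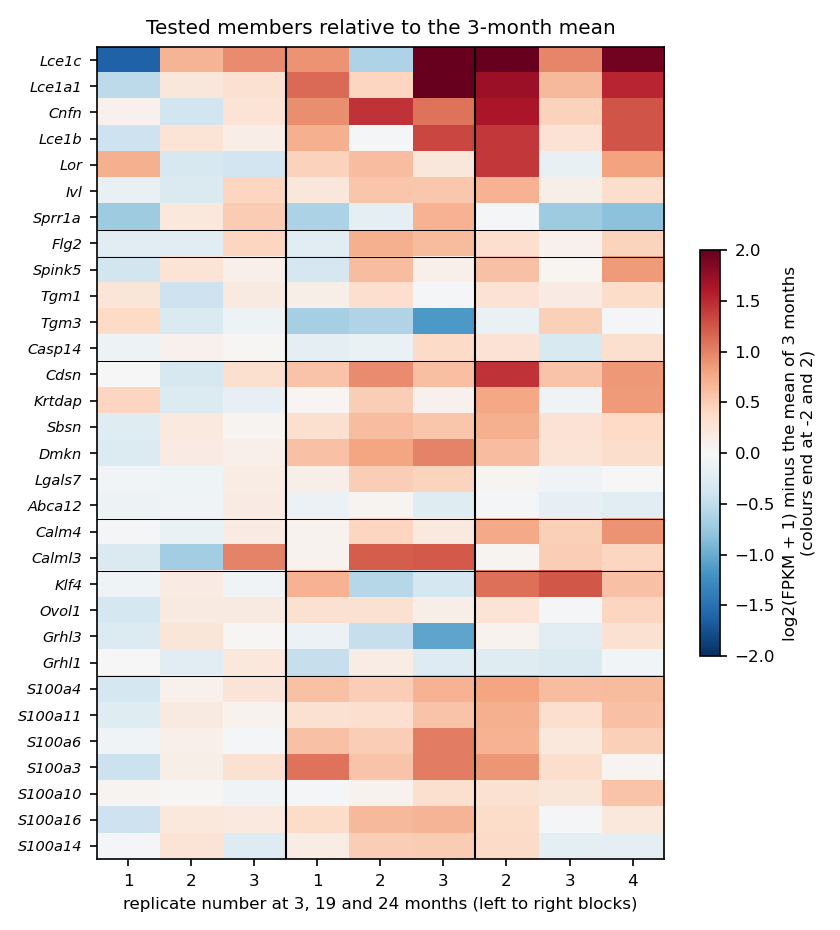
The log2(FPKM + 1) of each tested member in each library minus its mean over the 3-month libraries, with genes grouped by role and colour from lower to higher. Most rows are higher in the older libraries, 24 months replicate 3 is paler than the other 24-month libraries, and Lce1c varies widely within an age.

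Across the 31 tested members, 25 lay above their 3-month level at 19 months and 26 at 24 months, and 23 did so at both ages. Of all 11509 rows tested, 5842 lay above it at 19 months and 5702 at 24 months. The median difference was 0.39 at 19 and 0.41 at 24 months, against 0.01 and -0.00 over all 11509 rows tested. The members entered the test by a floor on FPKM that a gene high at 1 age can pass through that age alone, and their choice was made with earlier results known, so these counts are a description. After quantile normalisation the members' medians were 0.28 and 0.28, with 23 and 26 above 0. At 24 against 19 months the median was 0.02, with 17 of the 31 above 0, against 5385 of the 11509 rows, and no call by limma. At an unadjusted p under 0.05, 4 members were higher at 24 than at 19 months, against 5.77% of all tested rows, and 3 were lower, against 6.99%. At the same unadjusted threshold 13 members were higher and 2 lower at 19 than at 3 months, against 8.33% and 7.34% of all tested rows, and 13 were higher and 0 lower at 24 than at 3 months, against 10.3% and 11.3%.

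The number of calls depended on which libraries were kept. At 24 against 3 months no member was called by limma once replicate 2 of 3 months, or replicate 2 or 4 of 24 months, was left out. Calm4 and Cnfn alone were called when replicate 1 of 3 months was left out. When replicate 3 of 24 months was left out 7 members were called, among them all but Klf4 of the 5, and Klf4 was also lost when replicate 3 of 3 months was left out. The single call of Cnfn at 19 months was lost when replicate 1 or 2 of 3 months or replicate 2 or 3 of 19 months was left out, with an adjusted p of up to 0.123 in limma. No member was called in these fits except Lce1a1 in the one that left out replicate 2 of 19 months. The Cnfn call was also lost after quantile normalisation (limma, adjusted p = 0.0503) and with a robust prior (limma, adjusted p = 0.0517). Over all 20 alternative settings the adjusted p of Cnfn at 19 months lay between 0.00832 and 0.196 in limma. Cnfn was joined by others, to 3 members in all, when replicate 3 of 3 months was left out, and to 2 in all when replicate 2 or 3 of 24 months was. Of the 31 members, 24 were lowest of their age in 24 months replicate 3, and 18 were highest of their age in 24 months replicate 2. At 3 months, 18 were lowest in replicate 1, and at 19 months 18 were lowest in replicate 1. Each of the 6 called differences stayed above 0 in all 20 alternative settings.

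Counted by groups that did not overlap, 11 of the 31 members had all 19-month libraries on one side of all 3-month libraries, 10 higher and Tgm3 lower, against 22.5% of all tested rows in either direction. At 24 months, 13 members were higher in every library, against 10.6% of all tested rows, and 0 were lower, against 12.0%. Between 24 and 19 months Calm4 and Tgm3 were higher in every 24-month library, against 7.94%, and Lgals7 was lower, against 10.4%. On chromosome 3, which holds 21 of the 38 members and the epidermal differentiation complex, 14 were tested and 1 was called at 24 months, with medians of 0.50 at 19 and 0.44 at 24 months. The 17 tested members elsewhere had medians of 0.20 and 0.33 and 4 calls.

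**Figure D4:**
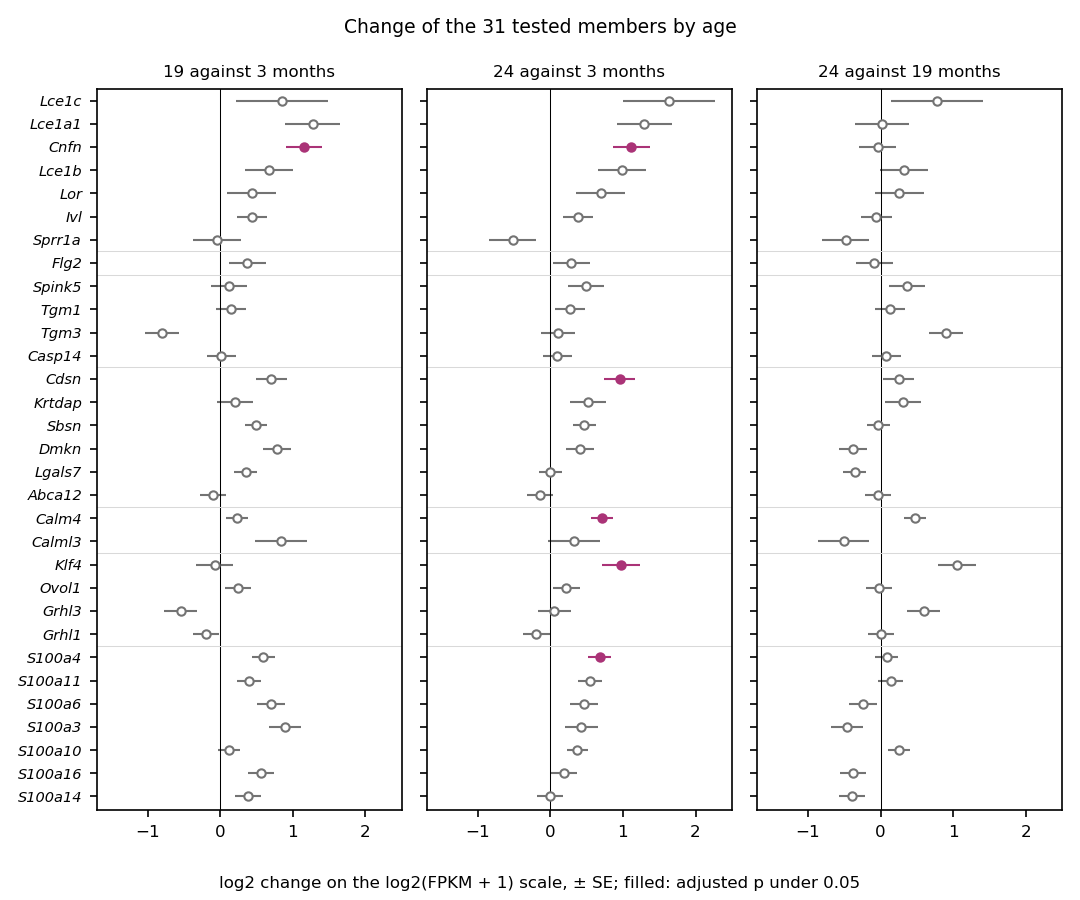
Difference in log2(FPKM + 1) of the 31 tested members, with 1 panel each for 19 against 3, 24 against 3 and 24 against 19 months, points for the limma estimate, whiskers for 1 SE and filled points for calls. In the panels against 3 months most points lie to the right of 0, Tgm3 at 19 months is the lowest at -0.80, and the widest whiskers belong to Lce1c.

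Among genes of the same pathways outside the 38, the few calls went in both directions. Of the 21 calls of pathway and marker genes that follow, 2 were also made in the fit of all rows, Ppl at 19 months and Ramp2 at 24 months. Among 22 other tested genes of the envelope and the epidermal differentiation complex, 1 was called as lower at 19 months and 1 as higher at 24 months. Ppl, for periplakin, a plakin that anchors the early envelope, was at 34.3, 35.4 and 34.0 FPKM at 3 months, at 19.9, 21.4 and 17.0 FPKM at 19 months and at 23.6, 26.4 and 26.8 FPKM at 24 months. It fell by 0.81 on the log2 scale at 19 months (SE 0.13; limma, adjusted p = 0.00643), and this call was kept in all 20 alternative settings, with an adjusted p of 0.0368 in the fit of all rows. Lce1l rose at 24 months by 1.84 ± 0.45 (limma, adjusted p = 0.0341), from a mean of 1.74 to 8.72 FPKM, and its value is as uncertain as those of the other Lce1 genes. The list's medians were 0.61 at 19 and 0.58 at 24 months.

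Among 16 tested suprabasal keratins and desmosomal genes, Perp, for a desmosomal membrane protein, fell at 24 months by 0.69 on the log2 scale (SE 0.17; limma, adjusted p = 0.0323), from 1625 to 1013 FPKM, and no other gene of the list was called at any comparison. Its medians were -0.08 at 19 and -0.13 at 24 months. Among 21 kallikreins, matriptase and inhibitor genes, Serpinb2, which encodes a serine protease inhibitor also known as plasminogen activator inhibitor type 2, fell at 19 months by 0.79 on the log2 scale (SE 0.16; limma, adjusted p = 0.0220) and rose between 19 and 24 months by 1.13 ± 0.16 (limma, adjusted p = 0.00490). Ctsl, for the lysosomal protease cathepsin L, rose at 24 months by 0.67 ± 0.14 (limma, adjusted p = 0.0178), from 134 to 214 FPKM.

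Among 15 tested barrier lipid genes, Elovl4, which lengthens very long fatty acids, fell at 19 months by 0.75 on the log2 scale (SE 0.15; limma, adjusted p = 0.0189). Aloxe3, a lipoxygenase of the barrier, rose between 19 and 24 months by 0.99 ± 0.22 (limma, adjusted p = 0.0476). Among 21 other tested epidermal transcription factors, Klf5 rose between 19 and 24 months by 0.79 ± 0.16 (limma, adjusted p = 0.0311), and none was called against 3 months. Among 10 other tested S100 genes and partners, S100a1 rose at 19 months by 0.67 ± 0.16 (limma, adjusted p = 0.0412), from 192 to 307 FPKM.

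The levels of suprabasal markers are given because a sorted bulge population can hold cells that have begun to differentiate, and in bulk RNA fewer cells of a type and less RNA per cell cannot be told apart. Of 8 such markers, 6 were tested and none was called against 3 months. Of the 6, 1 lay above its 3-month level at 19 months and 3 did at 24 months, with median differences of -0.45 and 0.10. At 24 months Krt10, Krt77 and Mt4 lay above and Krt1, Dsg1a and Skint3 below. Krt10, a keratin of the layers above the basal one, was at 79.2, 66.0 and 71.2 FPKM at 3 months, at 58.8, 62.7 and 53.1 FPKM at 19 months, and at 125, 60.0 and 107 FPKM at 24 months. Krt2 and Dsc1 stayed under 1 FPKM in every library, and Mt4, a metallothionein of differentiating epithelia, rose between 19 and 24 months by 0.95 ± 0.15 (limma, adjusted p = 0.00854). The summed FPKM of the list lay between 259 and 281 at 3 months, between 176 and 235 at 19 months and between 239 and 385 at 24 months. It was lower in all 3 libraries of 19 months than in those of 3 months. At 24 months it was highest in replicates 2 and 4. Cnfn was higher than at 3 months at both ages. At 24 months the called members Cnfn, Cdsn, Calm4 and S100a4 were also highest in replicates 2 and 4, while Klf4 was highest in replicate 3. This order was not particular to the called genes, since 24 of the 31 tested members were lowest of that age in replicate 3. The part of these markers in the results at 19 and at 24 months was not tested.

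The other marker lists, for the sorted cells and for cells a sort could carry along, held few calls, and these are given as levels that stand beside the members' results. Against 3 months, Sox9, a bulge factor, rose at 19 months by 0.66 ± 0.15 and Lgr5, a receptor of lower bulge cells, fell at 24 months by 1.01 on the log2 scale (limma, adjusted p = 0.0348 and 0.00581). Of 7 infundibulum and isthmus markers, Krt79 fell at 19 months by 0.97 and Lgr6 fell at 24 months by 0.98, and Ly6a rose between 19 and 24 months by 1.19 ± 0.18 (limma, adjusted p = 0.0130, 0.0112 and 0.00618). Fcer1g, of the macrophage, dendritic and Langerhans cell list, fell at 19 months by 0.90 and rose by 1.45 ± 0.20 between 19 and 24 months, and Nkg7 of the T cell list rose by 1.36 ± 0.25 over that interval (limma, adjusted p = 0.0373, 0.00403 and 0.0208). The endothelial genes Egfl7 and Ramp2 fell at 24 months by 0.83 and 0.88 (limma, adjusted p = 0.0219 and 0.00697), and their list summed to 5.64 to 14.9 FPKM over the 9 libraries. None of the 5 tested hair shaft and inner root sheath genes or of the 4 tested fibroblast genes was called. The summed FPKM over the 9 libraries lay between 40.2 and 94.0 for the macrophage, dendritic and Langerhans cell list, between 7.62 and 42.1 for the T cell list and between 17.5 and 24.9 for the hair shaft list. The sum of the dermal fibroblast list was larger, at 654 to 845 FPKM at 3 months, 871 to 1024 at 19 months and 755 to 1188 at 24 months. In every 19-month library it was above every 3-month library. The part of these cells in the members' results was not tested.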

How the data were processed

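RNA of sorted hair follicle stem cells was measured in 9 libraries. The submitters' processing notes name TopHat, Cuffdiff and NCBIM37, with no versions or settings. The authors deposited 1 FPKM value per row and library, and depth is unknown. Gene types came from GENCODE M21 by Ensembl ID, which matched 32916 of the 37980 rows, of which 20213 were protein-coding.

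The test was limma 3.58.1 in R 4.3.3, with a trended prior, on log2(FPKM + 1) of all 9 libraries, over protein-coding rows that reached 1 FPKM in 3 or more libraries. Left out were 36 rows with all libraries of an age at 0 and all of another at 5 FPKM or more. Fold changes on this scale understate the change of low genes. P-values are two-sided and were adjusted over all 11509 rows. The test was also run on simulated data with independent libraries and planted changes larger than those called in the members. That run does not measure its power or error for the results here. Members, lists, tests and the restriction to protein-coding rows were chosen with earlier results of these data known. Per-library values were set to be given for members that passed any fit of all libraries, for the 8 most abundant and for the smallest p of each role, and every passing pathway gene is named. Other settings were a pseudocount of 0.1, other filters, scalings and priors, a replicate block and leaving out each library.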

Additional observations from a re-analysis of the deposited data

How the results depend on the processing

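The 6 calls kept their direction in all 120 alternative values and were past the threshold in 65, with no reversal. The 29 member differences with an unadjusted p under 0.05 that did not pass kept their direction too, and passed in 22 of 578 alternative values. The number of members called at 19 against 3 months, 1 in the reported fit, was 0 in the fits of all rows, with or without rows listed at 0, and 0 without a filter on low values. It was 2 with a pseudocount of 0.1, with at least 5 FPKM, with a robust or a constant prior, and with the 2 ages alone. At 24 against 3 months, 5 in the reported fit, it was 0 in the fits of all rows and without a filter, and 2 after quantile normalisation. At any age, 5 in the reported fit, it was 0 in the fits of all rows and without a filter, and 2 after quantile normalisation and with a constant prior. Leaving out 1 library gave 0 to 3 calls at 19 months, 0 to 7 at 24 months, 0 to 1 between 19 and 24 months and 0 to 5 at any age. In the fit of all rows the log2 differences were those of the reported fit, while the unadjusted p of the 6 called differences was larger. For Cnfn at 19 months it was 0.00551 against 0.000331 in limma. It was not larger for every member: for Abca12, near 1 FPKM, it was 0.470 against 0.578 at 19 months in limma. The cause of the shifts was not tested.

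The deviations of same-numbered libraries correlated at 0.156, -0.164 and 0.093 between 3 and 19 months. The correlations were 0.148 and 0.187 between 3 and 24 months, and -0.174 and -0.197 between 19 and 24 months. Those of pairs with different numbers lay between -0.23 and 0.164. With 3 libraries per age, such values cannot decide whether the numbers pair the libraries, and the reported fit took them as unpaired. With a replicate block the calls were 2 at 19 months, 1 at 24 months, 1 between 19 and 24 months and 1 at any age. The 21 calls of pathway and marker genes outside the 38 kept their direction in all 417 alternative values and stayed past the threshold in 287. Without read counts, the precision of members near 1 FPKM could not be set.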
